A study of Mus musculus with 16 samples.

Results

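The comparison described here sets livers of NCoR1 knockout (KO) mice on chow against livers of wild-type (WT) mice on PTU/LID, which is 0.15% propylthiouracil given with a low-iodine diet. Its members are the 6 H3K27ac libraries of these 2 groups, 3 each, of 12 H3K27ac libraries and 16 samples in all, read over all 52645 regions of the shared count table. The mice carried a C57BL/6J strain background per the labels, were 6 weeks old when the diets began, and gave liver on day 21. KO chow mice had the knockout and standard chow, and WT PTU/LID mice had neither the knockout nor chow. The other groups, KO on PTU/LID and WT on chow with 3 libraries each, served as a second comparison that shares no library with the first. The labels name neither the deleted part of Ncor1 nor a promoter or cell type that drives the deletion, and thyroid hormone levels and sex were not used here. Nor do they state that the libraries of a group were prepared from different animals. The spread behind each p-value may therefore be partly technical.

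Thyroid hormone receptors sit on DNA with or without their hormone. Without it they hold a corepressor complex such as the one built on NCoR1, which brings histone deacetylase 3. With hormone the complex gives way to coactivators that acetylate histones. Propylthiouracil blocks thyroid hormone synthesis, and acetylation of lysine 27 on histone H3 (H3K27ac) marks active promoters and enhancers. KO chow is therefore the group in which receptor activity would be expected highest (hormone, no NCoR1), and WT PTU/LID the one in which it would be expected lowest (little hormone, NCoR1 present). NCoR1 also serves other nuclear receptors and repressors of liver, so the comparison is not one of the thyroid hormone receptor alone.

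The starts of 5 genes (coordinates in GRCm38.p6, which is mm10; sequences from RefSeq) are shown as examples of starts beside which the mark differed. Each run holds the 250 bases before the gene's start, 5′ to 3′ on the gene's strand. Dio1 encodes the hepatic deiodinase that makes active thyroid hormone and is a classical hormone target; Mup15, which encodes a major urinary protein, rose most of all genes with 2 or more regions. Mup17, Sult2a8 (a steroid sulfotransferase) and Mrpl55 (a mitochondrial ribosomal protein) were added after their values were seen, as a near copy of Mup15, as the only one of these starts with the receptor's core hexamer and as a start that fell. In the Dio1, Sult2a8 and Mrpl55 lines, capitals mark AGGTCA or its complement TGACCT, the hexamer at the core of sites for thyroid hormone and other nuclear receptors. In the Mup lines, capitals mark bases without an identical partner in an alignment of the 2 runs.
Dio1 (chr4:107307169-107307418, minus strand): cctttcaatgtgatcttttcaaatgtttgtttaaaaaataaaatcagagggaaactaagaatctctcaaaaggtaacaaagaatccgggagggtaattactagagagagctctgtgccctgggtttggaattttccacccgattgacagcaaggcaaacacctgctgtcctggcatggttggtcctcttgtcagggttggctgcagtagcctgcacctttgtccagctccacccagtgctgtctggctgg
Sult2a8 (chr7:14438552-14438801, minus strand): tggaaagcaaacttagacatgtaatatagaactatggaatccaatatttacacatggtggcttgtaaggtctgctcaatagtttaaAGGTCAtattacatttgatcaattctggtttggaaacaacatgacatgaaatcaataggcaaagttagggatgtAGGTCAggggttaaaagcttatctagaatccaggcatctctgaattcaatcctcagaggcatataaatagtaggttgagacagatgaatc
Mup15 (chr4:61439705-61439954, minus strand): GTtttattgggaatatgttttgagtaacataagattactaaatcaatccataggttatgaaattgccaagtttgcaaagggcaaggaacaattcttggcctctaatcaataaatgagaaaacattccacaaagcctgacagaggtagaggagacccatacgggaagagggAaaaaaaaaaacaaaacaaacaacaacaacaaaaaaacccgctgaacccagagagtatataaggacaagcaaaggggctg
Mup17 (chr4:61595833-61596082, minus strand): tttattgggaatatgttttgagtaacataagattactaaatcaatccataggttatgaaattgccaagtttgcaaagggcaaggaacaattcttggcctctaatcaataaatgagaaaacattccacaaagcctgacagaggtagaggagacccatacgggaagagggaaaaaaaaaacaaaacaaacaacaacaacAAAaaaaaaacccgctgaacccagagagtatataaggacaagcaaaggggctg
Mrpl55 (chr11:59202236-59202485, plus strand): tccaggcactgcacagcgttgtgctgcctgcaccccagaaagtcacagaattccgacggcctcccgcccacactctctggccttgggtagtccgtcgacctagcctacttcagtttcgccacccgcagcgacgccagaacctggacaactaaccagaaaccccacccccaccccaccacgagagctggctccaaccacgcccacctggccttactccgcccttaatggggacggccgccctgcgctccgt
AGGTCA occurred 2 times in the Sult2a8 run and in no other of the 5, on either strand. Of 32851 such runs in the reference table, 14.02% held it on either strand, and 0.015% held a direct repeat of it spaced by 4 bases, so a match describes the letters only. Mup15 and Mup17 shared 247 of 250 bases (98.8%), and reads of such copies cannot be placed with certainty.

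Beside these starts regions with a large difference were found. The region over the Dio1 start (chr4:107303100-107307183), which reaches from the gene only into the end of the printed run, averaged 164.4 ± 28.4 CPM in KO chow and 22.9 ± 5.52 CPM in WT PTU/LID (mean ± SD of the 3 libraries, TMM-scaled). Its log2 fold change was 2.86 ± 0.19 (edgeR quasi-likelihood adjusted p = 1.27e-14). Wherever ± follows a log2 fold change it gives the SE, and the genotype and chow parts given later are printed without one. A second, weak region over the earlier part of the run (chr4:107307299-107307548) did not pass, with 5.25 ± 1.19 CPM in KO chow and 3.16 ± 2.28 CPM in WT PTU/LID (0.83 ± 0.41, adjusted p = 0.249). The region over the Sult2a8 start (chr7:14437903-14441615) averaged 197.8 ± 22.4 CPM in KO chow and 45.7 ± 4.37 CPM in WT PTU/LID, a log2 fold change of 2.12 ± 0.17. The regions over the Mup17 and Mup15 starts rose by 3.50 ± 0.20 and 3.41 ± 0.23 on the log2 scale. The region that ends shortly before the Mrpl55 start (chr11:59201763-59202323) fell, with 3.81 ± 1.30 CPM in KO chow and 19.1 ± 3.56 CPM in WT PTU/LID (log2 fold change -2.30 ± 0.28). There KO PTU/LID had 6.01 ± 2.36 CPM and WT chow 16.4 ± 1.79 CPM, so both knockout groups were low. The next region, just inside the gene (chr11:59202553-59202752), did not pass (adjusted p = 0.538).

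Libraries differed in depth and in mitochondrial reads. Totals over the table were 5628758, 6704765 and 6707960 in KO chow against 3095704, 4546159 and 4729424 in WT PTU/LID (exact permutation test, 2-sided, p = 0.1, the smallest that 3 against 3 allows). Mitochondrial regions took 4.21%, 17.2% and 2.996% of the counts in KO chow against 3.26%, 0.946% and 1.08% in WT PTU/LID, with KO chow 27ac_146 the highest and WT PTU/LID 27ac_135 the only library of its group above 2%. The exact permutation p for these shares was 0.2. Of all 12 libraries 7 lay above 2%, namely 3 KO chow, 1 KO PTU/LID, 2 WT chow and 1 WT PTU/LID (the 7 libraries above 2% in what follows). For the larger lists the number of calls lost within those 7 is given beside them; beyond these values the part of mitochondrial reads in the results was not tested. Ncor1 had 52.2, 64.5 and 45.7 CPM in KO chow against 63.3, 50.5 and 50.4 CPM in WT PTU/LID, summed over its 6 regions. The groups overlapped (log2 fold change -0.01 ± 0.16, adjusted p = 0.981), and this acetylation does not check the genotype. The receptor genes Thrb (0.11 ± 0.10) and Thra (-0.10 ± 0.18), the liver product Alb (-0.13 ± 0.18) and Actb (0.12 ± 0.10) did not pass either. Of marker lists of other liver cells, 0 of 14 endothelial, 0 of 6 stellate and 0 of 5 Kupffer cell genes tested passed. Of 5 cholangiocyte genes 1 fell, Sctr (adjusted p = 0.0426, or 0.05 to 0.164 without any 1 of 7 libraries). Of the 6 stellate genes 0 had a positive log2 fold change (median -0.4). Positive values were held by 7 of 14 endothelial, 3 of 5 Kupffer cell and 2 of 5 cholangiocyte genes. Summed marker levels ran from 962.3 to 983.5 CPM in KO chow against 979.5 to 1151.2 CPM in WT PTU/LID for endothelial cells, from 41.3 to 61.7 CPM against 55.4 to 75.6 CPM for stellate cells, from 371.7 to 420.5 CPM against 362.2 to 431.0 CPM for cholangiocytes, whose defining genes Krt7, Krt19 and Epcam had no region, and from 38 to 44.7 CPM against 39.5 to 43.2 CPM for Kupffer cells, whose defining genes Clec4f, Adgre1, Vsig4 and Marco had no region; the part of these cells in the results was not tested. In whole liver, fewer cells with a mark and less of it per cell cannot be told apart.

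Across the genome, 4257 of 52606 regions tested (8.09%) passed an adjusted p below 0.05, of which 2744 (5.22%) were higher and 1513 (2.88%) lower in KO chow. Regions were assigned to the protein-coding gene around them or within 50 kb and their counts summed. Of 11460 genes, 1143 (9.97%) passed, with 710 (6.2%) higher and 433 (3.78%) lower in KO chow. The median log2 fold change over all genes was -0.01 and 48.6% were positive. With 1 library left out the count of regions ran from 2711 (without WT PTU/LID 27ac_280) to 4911 (without WT PTU/LID 27ac_135), and that of genes from 748 to 1409 without the same libraries. Without KO chow 27ac_146, the library richest in mitochondrial reads, 3045 regions and 778 genes passed. Within the 7 libraries above 2% mitochondrial reads, with 3 KO chow and 1 WT PTU/LID library that is assumed to vary like the others, 2661 regions and 991 genes passed. Of those regions 74.0% were higher, against 64.5% of the 4257.

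Where a gene had several regions that passed, they mostly moved one way. Of 778 genes with 2 or more such regions, 457 had all of them higher, 264 all lower and 57 some of each. The 29 genes with 10 or more included Mup-ps12 (18 higher), Arhgap26 (17), Prlr, the prolactin receptor (15 of 27), Cyp3a16 (15 of 15), Nudt7, a peroxisomal coenzyme A hydrolase (15 of 19), and Papss2, which makes the sulfate donor of the sulfotransferases (15 of 40). Sc5d of cholesterol synthesis had 10 higher and 1 lower.

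How often regions differed varied with their position relative to protein-coding genes. At gene starts 2.47% of 7894 regions were higher and 1.32% lower in KO chow; inside genes the shares were 4.83% and 2.54% of 29404, and between genes 7.38% and 4.33% of 15303. Over 50 kb from any protein-coding gene, 9.24% of 3539 regions were higher and 4.92% lower. The share that was higher also grew with level, being 2.3%, 4.91% and 8.44% in the lowest, middle and highest of 3 equal groups of regions by mean CPM, and with length, being 1.34% under 300 bp and 10.83% at 1000 bp and over. Regions that were lower showed less of this, with 1.55% under 300 bp and 3.19% at 1000 bp and over. The median level was 3.52 CPM under 300 bp and 43.06 CPM at 1000 bp and over. Low counts pass a threshold less readily, and the part of this in the shares was not tested. Gene starts were the group with the highest median level (16.8 CPM against 7.69 CPM inside genes), although their shares were the lowest. By chromosome, 9.0% of regions were higher on chromosome 4, which holds the Mup genes.

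**Figure D1:**
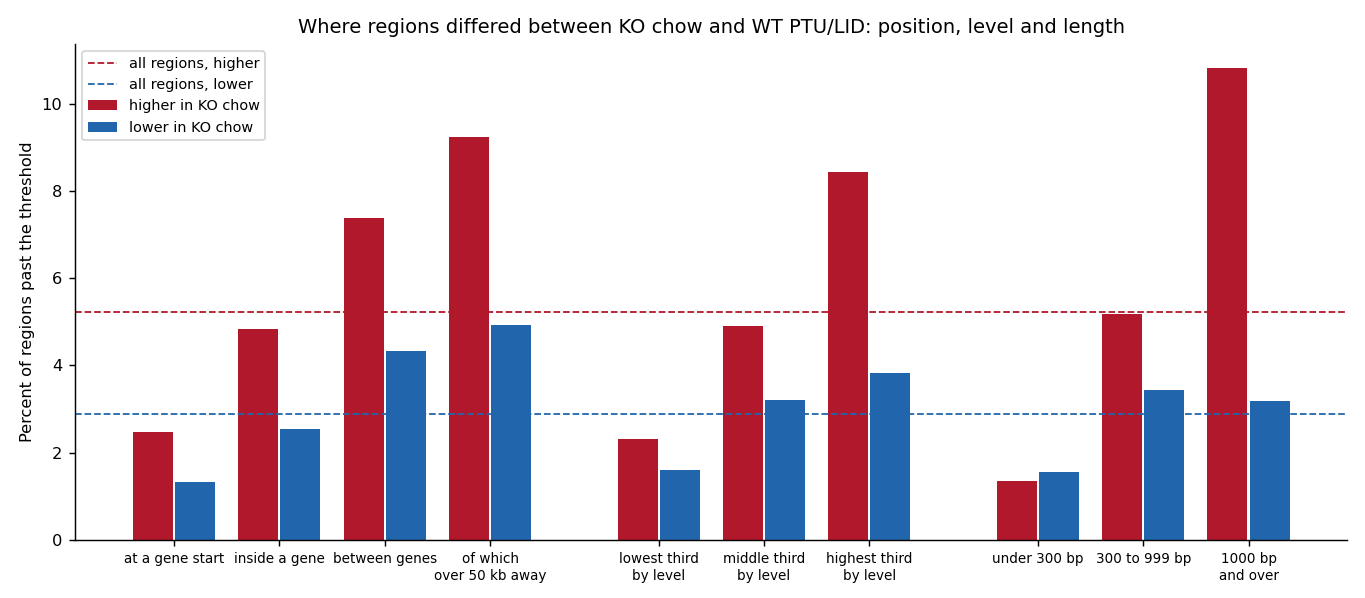
Bars give the percent of regions past an adjusted p of 0.05 in KO chow against WT PTU/LID, higher (red) and lower (blue), by position, by mean level in 3 equal groups and by length; dashed lines mark all regions (5.22% and 2.88%). Gene starts lie below the lines in both directions and regions of 1000 bp and over reach 10.83% higher.

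The largest rises belonged to 2 gene families, the major urinary proteins and the Sult2a sulfotransferases. Mup15 had 311.9, 288 and 341 CPM in KO chow against 41.8, 27.02 and 25.97 CPM in WT PTU/LID. Each KO chow library stood far above each WT PTU/LID library (log2 fold change 3.34 ± 0.21, adjusted p = 1.82e-08). Sult2a7 had 579, 525 and 516 CPM in KO chow against 60.2, 67.9 and 49.8 CPM in WT PTU/LID, again without overlap (3.19 ± 0.14, adjusted p = 9.09e-14). Of 23 Mup genes 21 rose and 1 fell, with a median log2 fold change of 2.67, and of their 206 regions 177 were higher and 3 lower. Named after their values were seen, Mup21 was the 1 that fell (-0.90 ± 0.14) and Mup20 the 1 that did not pass (0.18 ± 0.11). All 8 Sult2a genes passed, with a median of 2.36; 7 did so without any 1 of 5 libraries, where Sult2a4 (1.30 ± 0.40) missed the threshold with an adjusted p of 0.0515 to 0.212. Of 8 Cyp3a genes, drug and steroid hydroxylases, 7 rose, with a median of 1.56, and Cyp3a13 did not pass (0.17 ± 0.12). Within the 7 libraries above 2%, 5 Cyp3a genes rose, without Cyp3a41a (adjusted p = 0.168) and Cyp3a44 (0.0684), 20 Mup genes rose and 0 fell, and 7 Sult2a genes rose. Cyp3a16 had 225, 317 and 280 CPM in KO chow against 65.9, 58.3 and 55.0 CPM in WT PTU/LID (2.203 ± 0.27), and Cyp3a11 rose by 1.24 ± 0.13. The 3 families hold near copies, so which member carries a change is uncertain. Of their members only the starts of Mup15 and Mup17 were aligned here. Directions of the 3 medians held under each scaling tried.

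The region with the largest rise lay 20.2 kb from Mup12 (chr4:60761045-60762283) and had 83.3, 54.7 and 66.6 CPM in KO chow against 9.26, 5.17 and 3.08 CPM in WT PTU/LID (log2 fold change 3.61 ± 0.26). The 12 regions named for the largest rise were taken at most 1 per gene. Of these, 11 were on chromosome 4 in the Mup stretch (2 of them over 50 kb from a protein-coding gene) and 1 lay 26.4 kb from Sult2a7 (3.51 ± 0.18). Falls were smaller and scattered. The largest (chr8:116284559-116284930, 220.3 kb from a protein-coding gene) had 2.36, 1.49 and 1.99 CPM in KO chow against 14.9, 14.6 and 12.7 CPM in WT PTU/LID (-2.84 ± 0.32). Others lay in Osbpl5, an oxysterol-binding protein (-2.56 ± 0.33), in Igf2bp3 (-2.54 ± 0.45) and near Thap7 (-2.26 ± 0.31). The Igf2bp3 region did not pass by the DESeq2 Wald test or within the 7 libraries above 2% (adjusted p = 0.116).

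Among genes, Khdc1a fell most. All 8 of its regions were lower, by 1.70 to 2.55 on the log2 scale, and they sat together 21.1 to 33.9 kb outside the gene (chr1:21315544-21328716), so the gene is named by nearness only. Their sum was 71.0, 68.9 and 64.6 CPM in KO chow against 329, 327 and 360.5 CPM in WT PTU/LID (-2.32 ± 0.13, adjusted p = 4.45e-12). The groups were far apart, and WT chow with 147.2 ± 23.1 CPM lay between them. Spsb4, a ubiquitin ligase adaptor, had 37.6, 42.8 and 46.4 CPM in KO chow against 135.9, 129.2 and 132.4 CPM in WT PTU/LID (-1.65 ± 0.12). The other genes named for the largest falls were Ociad2, Mrpl55, Slc4a9, Gprc5b, Dock1, Gsta1, 1700113H08Rik, Trp63, Flvcr2 and Plekhs1, with log2 fold changes from -1.89 to -1.49; Plekhs1 did not pass within the 7 libraries above 2% (adjusted p = 0.0767).

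**Figure D2:**
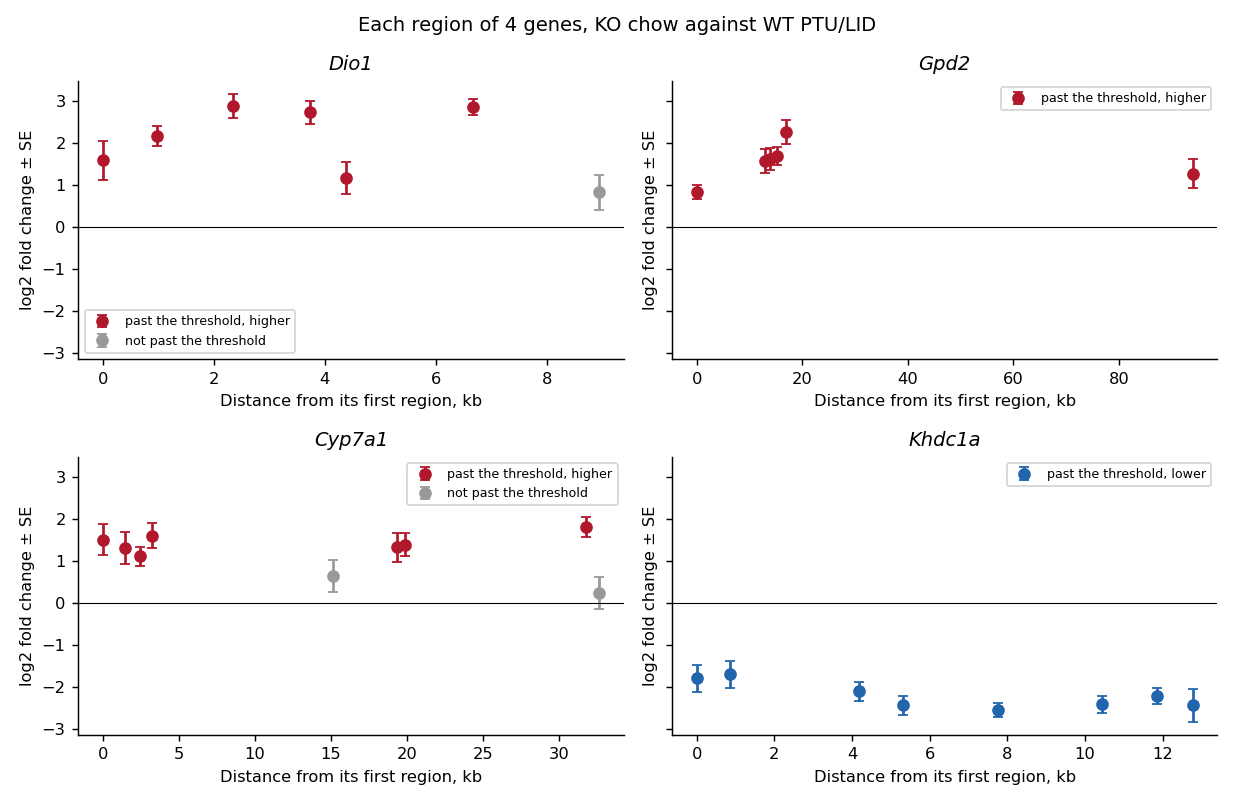
Log2 fold change with its SE of each H3K27ac region of Dio1, Gpd2, Cyp7a1 and Khdc1a, KO chow against WT PTU/LID, by distance from the gene's first region in kb. Of their regions 6 of 7, 6 of 6 and 7 of 9 were higher in the first 3 genes, and 8 of 8 were lower at Khdc1a.

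Genes that thyroid hormone is known to induce in liver moved in 1 direction where they passed. Of 16 tested, 9 rose and 0 fell, with a median log2 fold change of 0.41, against 6.2% higher and a median of -0.01 over all genes. Members of this and the other lists were chosen with earlier results of these data known. Their shares beside those of all genes are therefore descriptions and not tests. Dio1 had 291, 264 and 350.1 CPM in KO chow against 67.9, 44.2 and 37.97 CPM in WT PTU/LID, summed over its 7 regions (2.61 ± 0.19, adjusted p = 1.82e-08). Gpd2, the mitochondrial glycerophosphate dehydrogenase, had 192, 212 and 203 CPM in KO chow against 75.0, 74.0 and 78.8 CPM in WT PTU/LID, and all 6 of its regions were higher (1.41 ± 0.13). For both genes the groups did not overlap. Cyp7a1, whose enzyme sets the pace of bile acid production, had 97.4, 121 and 124 CPM in KO chow against 46.9, 45.1 and 41.0 CPM in WT PTU/LID (1.37 ± 0.14). Me1 (malic enzyme, 0.96 ± 0.15), Thrsp (a regulator of lipid synthesis, 0.73 ± 0.13) and Idh3a (a citric acid cycle subunit with 1 region, 1.03 ± 0.24) also rose. Within the 7 libraries above 2%, 2 of the 9 calls were lost, those of Idh3a (adjusted p = 0.0627) and G6pc. With 1 library out the count ran from 6 (without KO chow 27ac_190) to 10. Klf9, a transcription factor, rose by 0.59 ± 0.15 but not without KO chow 27ac_190 (adjusted p = 0.0682). Cpt1a was lost without KO chow 27ac_146 or 27ac_190 (0.0735 and 0.0812), and G6pc without KO chow 27ac_190, WT PTU/LID 27ac_155 or 27ac_280 (0.0759 to 0.12). Fasn had 134, 123 and 142 CPM in KO chow against 73.0, 112.5 and 115 CPM in WT PTU/LID and missed the threshold (0.40 ± 0.14, adjusted p = 0.066).

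Fewer of the genes that receive, carry or convert the hormone passed. Of 18 genes of this list 2 rose and 1 fell, beside 6.2% higher and 3.78% lower over all genes. Dio1, given above, was among those that rose, and the carrier Ttr fell (-0.36 ± 0.09; adjusted p = 0.0503 without KO chow 27ac_146). Of 16 genes of the NCoR complex and nuclear receptor coactivators, 2 rose. Tbl1xr1, a subunit that exchanges corepressors for coactivators, had 296, 321 and 313 CPM in KO chow against 177, 160.5 and 153 CPM in WT PTU/LID (0.93 ± 0.11, adjusted p = 1.08e-06). Nrip1 (0.46 ± 0.14) lost its call without any 1 of 6 libraries (adjusted p = 0.0504 to 0.26) and within the 7 libraries above 2%.

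**Figure D3:**
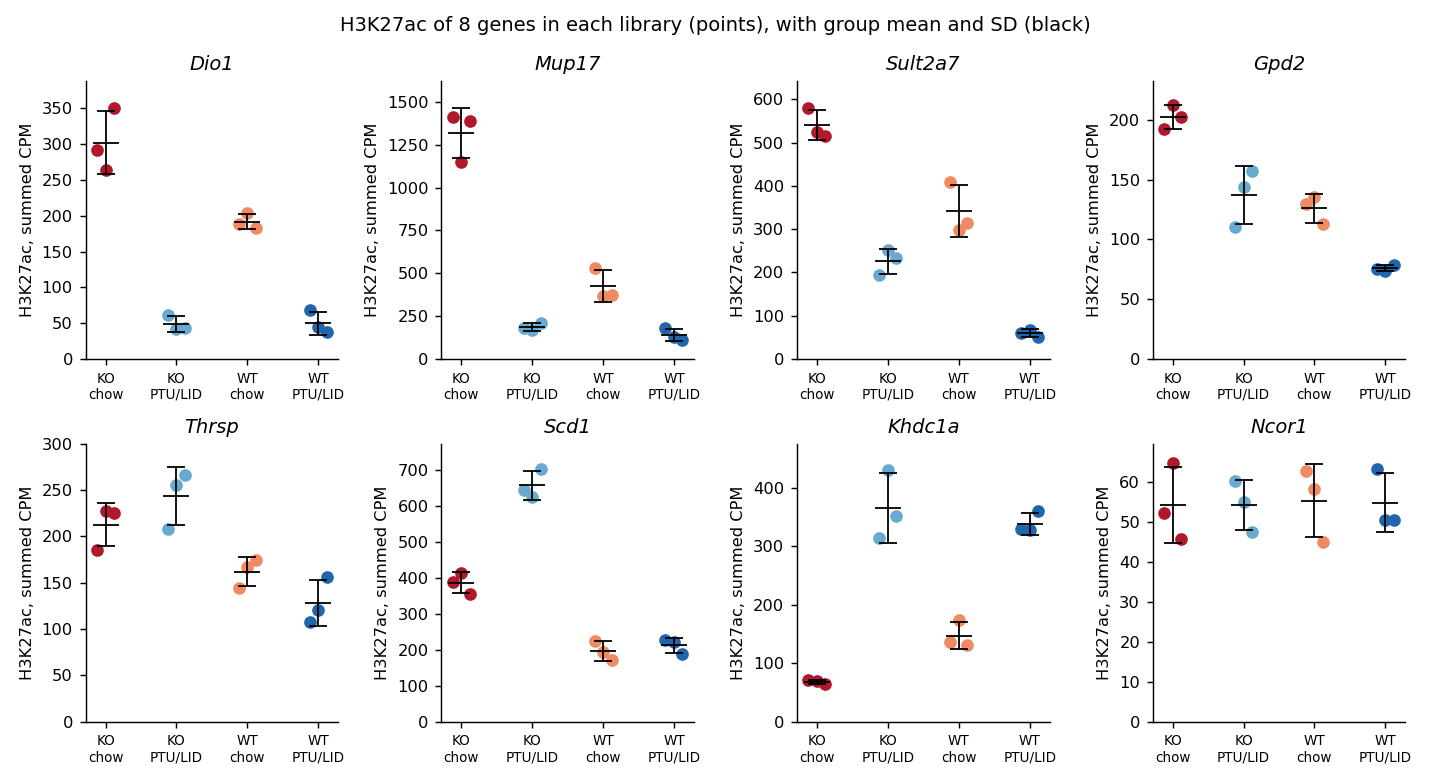
H3K27ac of 8 genes as CPM summed over each gene's regions, with 1 point per library and the mean and SD of each group of 3 in black. KO chow lies above WT PTU/LID without overlap for Dio1, Mup17, Sult2a7, Gpd2, Thrsp and Scd1 and below it for Khdc1a, while the groups overlap for Ncor1.

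Lipid synthesis genes that passed were all higher. Of 27 genes of fatty acid and triglyceride synthesis, 14 rose and 0 fell, with a median of 0.41 (12 to 15 rose with 1 library out, the fewest without KO chow 27ac_122 or 27ac_146). Scd1, which makes monounsaturated fatty acids, had 390, 413.5 and 355 CPM in KO chow against 227, 222 and 188.5 CPM in WT PTU/LID (0.86 ± 0.11). Elovl5 (0.73 ± 0.11) and Elovl3 (2.16 ± 0.40), both fatty acid elongases, the desaturase Fads2 (0.55 ± 0.11) and the fatty acid transporter Cd36 (0.60 ± 0.12) rose with it. Elovl3 rested on 1 region 21.8 kb away, with 8.90, 4.18 and 13.2 CPM in KO chow against 2.68, 1.65 and 1.75 CPM in WT PTU/LID. Mlxipl, the carbohydrate-responsive regulator of these enzymes, rose by 0.60 ± 0.11 on the log2 scale, but its value was -0.02 over regions within 2.5 kb of a gene end. Within the 7 libraries above 2% mitochondrial reads, 4 of the 14 calls were lost, among them Cd36, Fads2 and Elovl3 (adjusted p = 0.117, 0.195 and 0.0976). Of 12 targets of the oxysterol receptor LXR, 5 rose and 0 fell (3 without KO chow 27ac_122, KO chow 27ac_146 or WT PTU/LID 27ac_280, and 1 of the 5 lost within the 7 libraries), among them Scd1 and the sterol exporter gene Abcg8 (0.80 ± 0.11). Of 24 genes of cholesterol synthesis and uptake, 4 rose and 0 fell (2 without KO chow 27ac_146 or WT PTU/LID 27ac_280), led by Sc5d (0.99 ± 0.11) and Sqle (0.79 ± 0.19). Of these, Sqle did not pass within the 7 libraries above 2% or over regions within 2.5 kb (adjusted p = 0.0731 to 0.096), and 2 of the 4 were lost within the 7.

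Of 23 genes that make or move bile acids, 7 rose (5 without WT PTU/LID 27ac_280) and 1 fell, with a median of 0.16, and most did not pass. Of the 7 rises, 1 was lost within the 7 libraries above 2%. Akr1d1, a reductase of the pathway, rose by 1.17 ± 0.12, Abcb4, which moves phospholipid into bile, by 0.99 ± 0.11, and Cyp27a1, of the alternative pathway, by 0.76 ± 0.13. Abcc3, an exporter of conjugates toward blood, fell by 0.52 ± 0.12 on the log2 scale, with 260.4, 294 and 239.1 CPM in KO chow against 404, 426 and 309 CPM in WT PTU/LID. Akr1d1 did not pass over regions within 10 kb (adjusted p = 0.0585). Of 33 fat oxidation genes 8 rose and 0 fell (6 without KO chow 27ac_146 or WT PTU/LID 27ac_280), such as Vnn1 (0.79 ± 0.16) and Decr1 (0.58 ± 0.12). Of 21 genes of the respiratory chain and mitochondrial biogenesis 5 rose and 0 fell (3 without KO chow 27ac_122 or 27ac_146), of which Gpd2, Idh3a and citrate synthase, Cs (0.55 ± 0.11), held without each library. Of the 8 fat oxidation rises 4 and of the 5 respiratory chain rises 2, that of Idh3a included, were lost within the 7 libraries above 2%.

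The growth hormone axis sets much of the sex bias of liver genes. Of 15 genes of the axis 7 rose and 0 fell, with a median of 0.44 (4 without KO chow 27ac_190). Prlr had 456, 621 and 512.5 CPM in KO chow against 307.5, 282 and 233 CPM in WT PTU/LID (0.95 ± 0.14), and Stat5a, which growth hormone and prolactin activate, rose by 0.93 ± 0.17. Bcl6, a repressor of that signal, rose by 0.79 ± 0.10. Of the 7 calls, 3 were lost within the 7 libraries above 2%, among them Stat5a (adjusted p = 0.0539). Of 18 female-biased genes 12 rose and 0 fell, with a median of 0.88 (9 without KO PTU/LID 27ac_232, KO chow 27ac_146 or WT PTU/LID 27ac_280); 4 of them were Cyp3a genes and 1 a Sult2a gene, families already given above, and Cyp17a1, a steroid hydroxylase, rose by 1.12 ± 0.15. Of the 12 calls, 3 were lost within the 7 libraries above 2%. Male-biased genes moved both ways, with 5 of 15 higher and 3 lower. Mup1 (2.77 ± 0.14) and Nudt7 (1.56 ± 0.12) rose, whereas Cyp4a12a fell to 8.09, 7.94 and 6.75 CPM in KO chow, against 18.1, 18.3 and 21.6 CPM in WT PTU/LID (-1.36 ± 0.24). Cyp2d9 (-0.87 ± 0.14) and Gstp1 (-0.65 ± 0.13) fell as well. Of the male-biased calls 1 of 5 rises (Elovl3) and 1 of 3 falls, that of Gstp1, were lost within the 7 libraries above 2% (adjusted p = 0.235 for Gstp1).

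**Figure D4:**
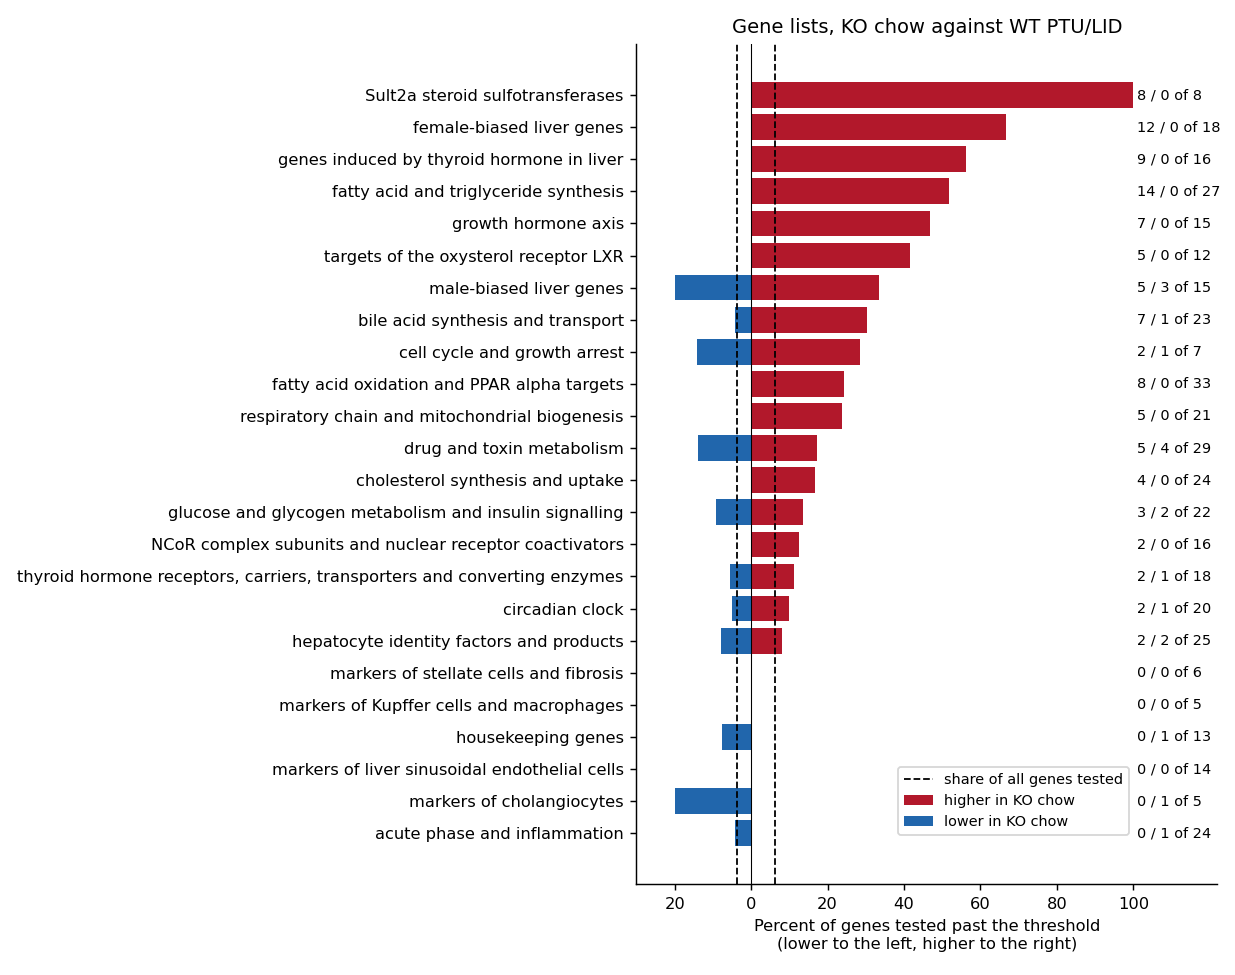
Bars give the percent of tested genes of each list that were higher (right, red) or lower (left, blue) in KO chow than in WT PTU/LID at an adjusted p below 0.05, with the counts at the right; dashed lines mark 6.2% and 3.78% of all genes. Sult2a, female-biased, hormone-induced and lipid synthesis genes reach furthest to the right, while 0 endothelial, stellate and Kupffer cell genes passed. Lists with fewer than 5 tested genes are not drawn. Members were chosen with earlier results of these data known.

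Other lists moved in both directions or hardly at all. Over all genes 6.2% were higher and 3.78% lower, and several of these lists lie near those shares. Of 29 genes of drug and toxin metabolism 5 rose (3 without KO chow 27ac_146, KO chow 27ac_190 or WT PTU/LID 27ac_280) and 4 fell (2 without KO chow 27ac_122), with Nqo1, a quinone reductase, lowest (-1.03 ± 0.18). Of 22 genes of glucose metabolism 3 rose (1 without KO chow 27ac_190) and 2 fell (0 without KO chow 27ac_146 or WT PTU/LID 27ac_155). Ppp1r3b, a glycogen-targeting subunit, was the 1 that held without each library (0.64 ± 0.10), but it did not pass over regions within 10 kb or within 2.5 kb of a gene end (adjusted p = 0.69 to 0.761). Within the 7 libraries above 2%, 1 of the 3 rises and 1 of the 2 falls in this list lost their call, as did 0 of the 5 rises and 3 of the 4 falls in drug metabolism, Nqo1 among them (0.0672). Of 20 clock genes 2 rose and 1 fell, of which Nfil3, a clock output repressor, held without each library (0.66 ± 0.14) but not within the 7 libraries above 2% (adjusted p = 0.0572). Of 25 hepatocyte genes 2 rose and 2 fell, and Tdo2, which degrades tryptophan, was the 1 that held without each library (-0.71 ± 0.13). Of 24 acute phase genes 1 fell, Ccl2, a chemokine, with 21.8, 20.9 and 16.2 CPM in KO chow against 50.2, 38.3 and 43.2 CPM in WT PTU/LID (-1.16 ± 0.16); over regions within 10 kb it did not pass (adjusted p = 0.904 as the lower of 2 such settings). Of 13 housekeeping genes 1 fell, Ppia (-0.52 ± 0.14), which missed the threshold without any 1 of 4 libraries (0.0803 to 0.117). Cd4, 1 of 2 lymphocyte markers with regions, rose by 1.59 ± 0.17, while Cd3e, Cd8a and Ms4a1 had none. The other of the 2 did not pass, and its log2 fold change was not positive. Summed over these 2 genes, levels ran from 105.9 to 142.9 CPM in KO chow against 50.2 to 67.9 CPM in WT PTU/LID. The higher sum therefore describes Cd4 and not lymphocyte markers as a set, and the part of lymphocytes in the results was not tested. Of 7 cell cycle genes, Ccnd1 and Myc rose and Cdkn1a fell, and each lost its call without at least 1 library (adjusted p = 0.0509 to 0.108).

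The difference between KO chow and WT PTU/LID adds what knockout does to what chow does, averaged over the other factor. KO PTU/LID against WT chow, from the other 6 libraries, holds the first minus the second. Same sign in both thus marks a larger genotype part and opposite sign a larger diet part. In that second comparison 6566 regions (12.5%) and 2204 genes (19.2%) passed. Of the 4257 regions that passed in the first, 315 (7.4%, and 4.8% of the second's) also passed in the second with the same sign, 724 (17.0%, and 11% of the second's) passed with the opposite sign, and 3218 (75.6%) did not pass. Of the 1143 genes, 137 (12.0%, and 6.2% of the second's) kept the sign, 229 (20%, and 10.4%) had the opposite one and 777 (68.0%) did not pass. Over all features the second comparison's 12.5% and 19.2% hold both signs, and shares per sign are not given here. The overlaps are thus given as counts and not as an excess of either kind. With a term for the 7 libraries above 2% mitochondrial reads in the fit, 227 genes kept the sign and 220 had the opposite one, so the balance of the 2 kinds among genes depends on that term. The split differed by direction, though the shares of all genes higher and lower in the second comparison are not given here beside it. Of 710 genes that were higher in KO chow, 121 (17.0%) had the same sign and 102 (14.4%) the opposite; of 433 that were lower, 16 (3.7%) had the same sign and 127 (29.3%) the opposite. Genes were chosen by the difference between KO chow and WT PTU/LID, which favours means of the other 2 groups between them. Such means were found for 470 of the 710 and 260 of the 433, and the share over all genes is not given here. Over the genes that rose the median genotype effect was 0.35 and the median effect of chow 0.30 on the log2 scale. Over those that fell they were -0.22 and -0.44. Per gene these effects add up to the difference by which it was chosen, so the signs of the medians were largely set by it. Both kinds moved with single libraries. With the same sign there were 78 genes (7.2%) without KO PTU/LID 27ac_239 and 213 (16.22%) without KO PTU/LID 27ac_211. The share of genes with the opposite sign ran from 15.65% without KO PTU/LID 27ac_232 to 26.33% without WT PTU/LID 27ac_135.

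Dio1 had the larger part from diet. It had 62.1, 41.8 and 43.1 CPM in KO PTU/LID against 189, 203 and 183 CPM in WT chow, with log2 fold change -1.99 ± 0.18 (adjusted p = 3.7e-06), so its 2.61 was made of a genotype effect of 0.31 and a chow effect of 2.30. Mup15 (1.16 and 2.18), Nudt7 (0.41 and 1.15) and Khdc1a (-0.50 and -1.81) were of this kind too, and 18 Mup genes fell in KO PTU/LID against WT chow. Scd1 stood at the other end. It had 645, 625 and 703 CPM in KO PTU/LID against 225, 193 and 171 CPM in WT chow (1.75 ± 0.11), and its parts were 1.31 for genotype and -0.44 for chow. Thrsp (0.66 and 0.07), Mlxipl (0.69 and -0.08) and Sult2a2 (2.29 and 0.51) also had the larger part from genotype, and Mrpl55 (-1.58 and -0.28) did so among the falls. Gpd2 was of neither kind, with 110.2, 144 and 157 CPM in KO PTU/LID against 130, 136 and 113 CPM in WT chow (0.13 ± 0.12, adjusted p = 0.487) and parts of 0.77 and 0.64. Within the Sult2a family Sult2a7 and Sult2a8 fell in KO PTU/LID against WT chow (-0.59 ± 0.13 and -0.75 ± 0.13), whereas Sult2a1, Sult2a2, Sult2a3 and Sult2a5 rose, by 1.18 to 1.78.

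**Figure D5:**
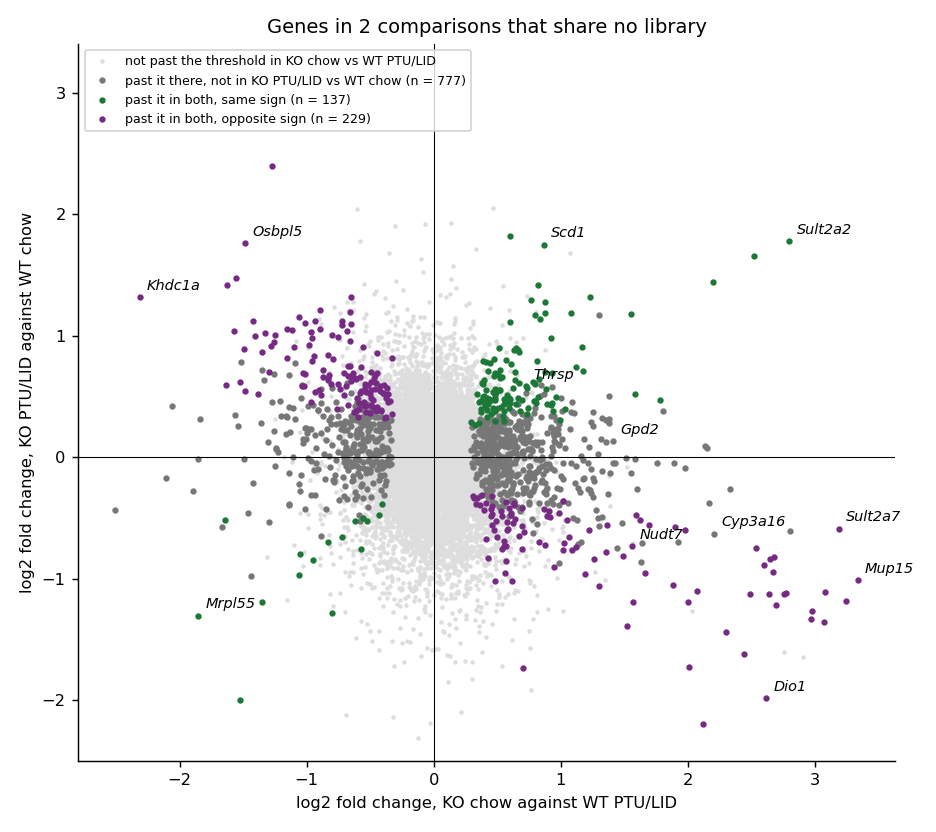
Each point is a gene, with its log2 fold change in KO chow against WT PTU/LID on the x axis and in KO PTU/LID against WT chow on the y axis. Green points (137) passed in both with the same sign, purple points (229) in both with the opposite sign; Dio1, Mup15, Sult2a7 and Khdc1a are among the purple points and Scd1, Sult2a2 and Mrpl55 among the green ones.

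Regions that were lower in both comparisons were few, 50 in all, and were spread over 19 chromosomes. Chromosome 11, which carries Ncor1, held 6 of them and 3892 of the 52606 regions tested. Chromosome 9 also held 6, with 2799 of the regions tested. Of the 6 on chromosome 11, 2 lay within 5 Mb of Ncor1, near Btnl10 (chr11:58927608-58928469, -1.56 ± 0.25) and before the Mrpl55 start. Within 5 Mb of Ncor1, 19 of 306 regions (6.21%) were higher and 6 (1.96%) lower in KO chow. Over all regions the shares were 5.22% and 2.88%. Whether the genotype effect itself differed with diet passed for 48 genes (0.419%). Of these, 10 were among the genes higher and 7 among the genes lower in KO chow than in WT PTU/LID.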

How the data were processed

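H3K27ac chromatin immunoprecipitation libraries of mouse liver were compared over 1 count table of 52645 regions. The deposited values are raw read counts per region for 12 libraries; per the submitters' processing notes, the tools named are MACS2 2.1.1, bedtools 2.26.0, Picard 2.8.1, bcl2fastq 2.17.1.14 and the aligner Bowtie2 2.2.1, with build mm10, and no source used here gives their settings. The 4 input samples were not analysed here. Region starts in the table count from 0 and are printed from 1.

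Groups were taken from the labels. Counts were tested with edgeR 4.0.16 (R 4.3.3), quasi-likelihood with robust fit, TMM scaling and filterByExpr with a minimum count of 10, with 1 mean per group over all 12 libraries and Benjamini-Hochberg adjustment over all regions or genes, at 0.05. Gene counts sum the regions whose midpoint lies in the gene or within 50 kb of its nearest end, over 21896 protein-coding RefSeq genes of GRCm38.p6; 11472 had a region. SE is the log2 fold change over the root of its F statistic. CPM values use TMM scaling.

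Named regions and genes are the 12 largest rises and 12 largest falls among those past the threshold with groups that do not overlap (genes with 2 or more regions), members of the lists past the threshold, and a set of receptor, target and control genes. Named regions were limited to nuclear chromosomes and to at most 1 per gene. The members and lists were chosen with earlier results of these data known. Alternatives were DESeq2 1.42.0 (test and size factors), loess offsets, other filters, other distances, thinned counts, mitochondrial terms and leaving out each library. The fit was tested on simulated data. The labels give no number shared between groups, so no pairs were formed. Some items are not reported here.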

Additional observations from a re-analysis of the deposited data

Results flagged for a closer look

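For 4 named genes the genotype effect on chow (KO minus WT) differed from that on PTU/LID by the interaction term of the edgeR quasi-likelihood fit, adjusted over all genes. The log2 difference between the genotype effects on chow and on PTU/LID was 2.07 for Cyp3a16 (SE 0.38, adjusted p = 0.048) and 1.22 for Mup17 (SE 0.25, adjusted p = 0.0466), whose knockout effect was larger on chow. It was -1.27 for Sult2a7 (SE 0.19, adjusted p = 0.00202) and -1.22 for Khdc1a (SE 0.18, adjusted p = 0.00202). Sult2a7 thus gained more with knockout on PTU/LID, with 193.7, 251 and 232.7 CPM in KO PTU/LID against 60.2, 67.9 and 49.8 CPM in WT PTU/LID, than on chow, with 579, 525 and 516 CPM in KO chow against 409.7, 298 and 315 CPM in WT chow. Khdc1a differed between genotypes on chow, with 71.0, 68.9 and 64.6 CPM in KO chow against 136, 174 and 132 CPM in WT chow, while KO PTU/LID and WT PTU/LID overlapped, with 313.6, 430.4 and 352 CPM against 329, 327 and 360.5 CPM. Mup17, Cyp3a16 and Sult2a7 belong to families that hold near copies. Mup15, whose start nearly matches that of Mup17, had a log2 difference of 1.19 (SE 0.29) and did not pass (adjusted p = 0.1). The interaction term was fitted only in the main fit, so whether these 4 calls hold under the alternatives or without single libraries was not tested.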

How the results depend on the processing

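Of 147 named results past the threshold, 80 stayed past it with their direction under every alternative that gave a value, 67 lost it under at least 1, and 45 of these when 1 library was left out. Ugt2b38 changed sign over regions within 10 kb (-0.09) and within 2.5 kb (-0.05), and Mlxipl within 2.5 kb (-0.02). In the 7 libraries above 2% mitochondrial reads 35 of 147 lost their call and 692 regions were lower. There 3.34% (89) of the regions past the threshold kept the sign and 7.07% (188) had the opposite sign in KO PTU/LID against WT chow, and 6.36% (63) and 9.69% (96) of the genes did so, against 7.4%, 17.01%, 11.99% and 20.03% in the report. With a term for that set, 17.38% (227) of the genes kept the sign and 16.85% (220) had the opposite sign. Thinned to equal totals, 5.94% (194) of the regions kept the sign. Over regions within 2.5 kb, which leaves fewer genes, 343 genes were higher and 172 lower, 11.46% (59) kept the sign and 18.64% (96) had the opposite sign. With 1 library left out, regions that were higher ran from 1768 (without WT PTU/LID 27ac_280) to 3020 and those lower from 912 (without WT PTU/LID 27ac_155) to 1989 (without WT PTU/LID 27ac_135). Genes that were higher ran from 460 (without WT PTU/LID 27ac_280) to 817 and those lower from 273 (without KO chow 27ac_146) to 592. The share of regions with the same sign ran from 3.56% (without KO PTU/LID 27ac_232) to 9.77% (without KO PTU/LID 27ac_211) and that with the opposite sign from 10.21% (without KO PTU/LID 27ac_239) to 19.77%; for genes the shares ran from 7.2% (without KO PTU/LID 27ac_239) to 16.22% and from 15.65% to 26.33% (371 genes, without WT PTU/LID 27ac_135). The causes were not tested. WT PTU/LID libraries held fewer counts than KO chow libraries, which limits what small regions can show. No paired analysis was possible because the groups share no replicate number.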
